A study of Homo sapiens with 8 samples.

Results

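The genes described here are those of the cytosolic ribosomal proteins, chosen by name. They are the autosomal protein-coding genes whose symbol starts with RPL or RPS and a digit, together with RPSA, RPLP0, RPLP1 and RPLP2, without the RPS6K kinases and without hyphenated symbols. The rule took 82 of the 63241 gene identifiers in the deposited values. Of these, 43 encode core proteins of the large subunit, 30 encode core proteins of the small subunit, 8 are paralogs of a core gene, and 1, RPS19BP1, encodes a binding protein of RPS19 that is no subunit. Another 6 genes of the same name pattern on the sex chromosomes fell outside the rule. The rule itself uses no measured value, although it was chosen with earlier results of these data known.

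Expression was measured by sequencing of polyadenylated RNA in 8 libraries, 2 for each of 4 groups, the WT and the SR form of HepG2 and of Huh7. HepG2 and Huh7 are established human hepatocellular carcinoma cell lines. WT cells are the parental, sorafenib-sensitive cells, whose treatment is labelled control, and SR cells were made resistant to sorafenib, a multikinase inhibitor, by exposure to rising concentrations, and their treatment is labelled sorafenib. The labels put all libraries in a single batch and do not say whether replicates came from separate cultures, so p-values measure only the spread between these libraries, which may be technical. Values are FPKM, fragments scaled by transcript length and by the total of the library, and they carry no read totals, so the depth behind each value is unknown.

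Ribosomal proteins form the protein part of the large and small subunits of the ribosome, where most occur in a single copy beside the ribosomal RNA. Their genes are among the most strongly expressed in growing cells. Many of their mRNAs begin with a tract of pyrimidines, the terminal oligopyrimidine tract, through which signalling by mTOR controls their translation. Most of these genes have many processed pseudogenes of nearly the same sequence.

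The tract can be seen at the start of several members whose values are described below. The sequences are from RefSeq (GRCh38.p14), run 5′ to 3′ on the gene's strand from 30 bases before the annotated start to 20 bases of transcript, and capitals mark the first match to CTTTNC. They are shown for genes that stood high or low in a single library.
RPSA, chr3:39406690-39406739, plus strand: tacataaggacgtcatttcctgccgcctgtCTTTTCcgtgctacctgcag
RPL24, chr3:101686699-101686748, minus strand: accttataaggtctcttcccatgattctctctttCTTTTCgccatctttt
RPS24, chr10:78033833-78033882, plus strand: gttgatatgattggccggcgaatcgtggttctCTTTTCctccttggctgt
RPL4, chr15:66504836-66504885, minus strand: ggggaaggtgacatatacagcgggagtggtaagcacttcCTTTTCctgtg
RPL21, chr13:27251528-27251577, plus strand: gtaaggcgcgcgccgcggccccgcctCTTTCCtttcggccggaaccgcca
RPL32, chr3:12841546-12841595, minus strand: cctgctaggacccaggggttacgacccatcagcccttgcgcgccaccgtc
RPL15, chr3:23916515-23916564, plus strand: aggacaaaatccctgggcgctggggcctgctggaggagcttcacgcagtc

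Promoter sequences were matched for 58 of the 73 core members. The letters CTTTNC lay between 30 bases before and 30 bases after the start, on the gene's strand, in 28 of these 58 (48.3%), against 1022 of 15301 promoters of protein-coding genes (6.68%). On the opposite strand the same letters were in 3 members (5.17%) and in 5.67% of all promoters. Among the sequences above, RPSA, RPL24, RPS24, RPL4 and RPL21 carried the match, and RPL32 and RPL15 held none in this window. Whether the annotated start is the one used in these cells was not tested, so the tract may lie elsewhere in those genes. The members high in the library labelled HepG2 SR replicate 2 included genes with and without the match at the annotated start. CCGGAAG, the core of the binding motif of ETS factors, was found on the gene's strand within the 300 bases in 14 members (24.1%) against 8.16% of all promoters, and on the other strand in 6 (10.3%) against 7.71%. ATGGCG was found on the opposite strand between 30 bases before and 50 after the start in 10 members (17.2%) against 2.78%, and on the gene's strand in 3 (5.17%) against 5.68%. The E-box CACGTG, the same on both strands, was in 3 members (5.17%) and 8.87% of all promoters. TATAAA lay between 40 and 10 bases before the start in 2 of 58 members (3.45%) and 3.70% of all promoters on the gene's strand, and in 2 members and 0.725% on the other. These matches are descriptions of letters in the window.

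Libraries stood apart from their groups in ways that bear on every comparison. Over the 15173 genes tested, the libraries labelled Huh7 WT 2, Huh7 SR 2 and, from HepG2, WT 1, WT 2 and SR 1 were alike, Huh7 WT 1 and Huh7 SR 1 were alike, and HepG2 SR 2 was apart from both sets, so that profiles did not sort by the cell line in the labels. All 8 libraries expressed at least 10 of 11 hepatocyte or liver cancer markers at an FPKM of 1 or more. ALB, the albumin gene, stood at 11.98 and 42.3 FPKM in Huh7 WT 1 and Huh7 SR 1, at 604 in Huh7 WT 2 and between 2139 and 4713 in the others. Of 11 markers of leukocytes, endothelium and fibroblasts, between 1 and 4 reached an FPKM of 1 in a library. Their sum ran from 8.91 to 79.5 FPKM, in the 5 similar libraries mostly ACTA2 and CD68, while PTPRC, CD3E and DCN were at or near 0 in all. The part of these differences in the results below was not tested.

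The members made up a large share of the values in every library. In HepG2 their summed FPKM was 26648 and 30447 without and 37239 and 43100 with resistance. For Huh7 it was 23744 and 37922 in the parental and 38924 and 35175 in the resistant cells. Both HepG2 SR libraries thus lay above both HepG2 WT libraries, while in Huh7 the groups overlapped, with the lowest of all 8 sums in Huh7 WT 1. As a share of all FPKM, the members took 7.31% ± 0.538 (SD, n = 2) in parental and 9.54% ± 0.707 in resistant HepG2, and 7.77% ± 2.28 in parental and 8.82% ± 0.766 in resistant Huh7. In bulk RNA, a lower number of cells of one kind and less RNA per cell cannot be told apart. The share taken by mitochondrially encoded genes ran from 14.3% to 25.7% over the libraries and was highest in Huh7 SR 2.

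The typical large and small subunit gene stood at a similar level within each library. The median FPKM of the 43 large subunit genes was 335 and 440 in parental and 511 and 551 in resistant HepG2, and 316 and 447 in parental and 522 and 421 in resistant Huh7. For the 30 small subunit genes the median was 381, 423, 518 and 489 in the HepG2 libraries and 285, 491, 477 and 457 in the Huh7 libraries, WT before SR. The medians of both subunits were lowest in Huh7 WT 1. The ratio of the large to the small median stayed between 0.878 in HepG2 WT 1 and 1.13 in HepG2 SR 2. The ratio of summed FPKM was 1.43 ± 0.0221 in parental and 1.53 ± 0.0503 in resistant HepG2, and 1.42 ± 0.177 in parental and 1.48 ± 0.0816 in resistant Huh7 (SD, n = 2 each). Its lowest value, 1.30, was that of Huh7 WT 2, the library in which RPS18, a small subunit gene, was far above its level elsewhere.

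**Figure D1:**
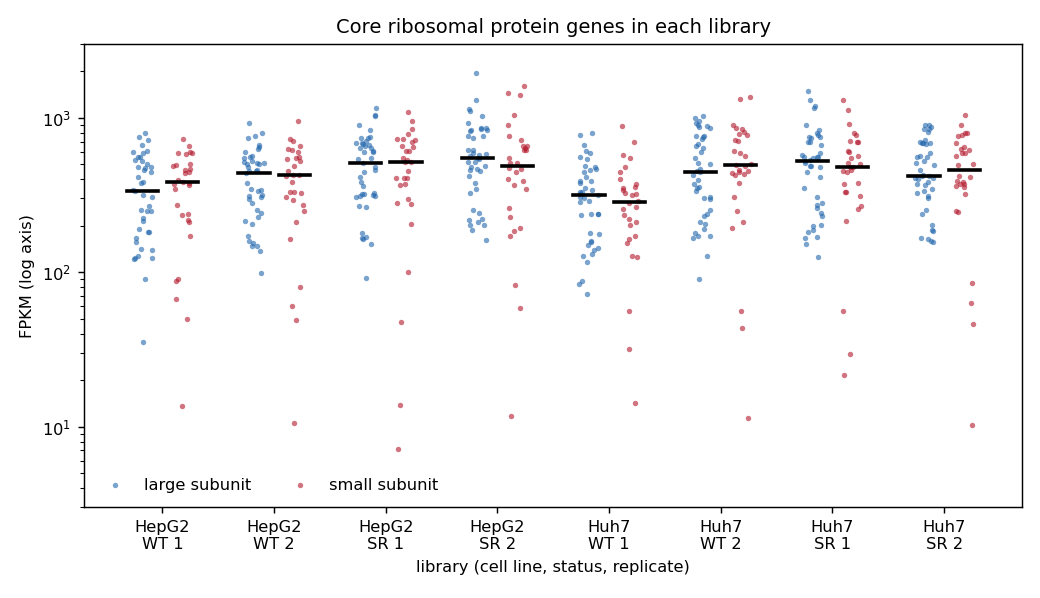
FPKM (log axis) of the 43 large and 30 small subunit core genes in each library, 1 point per gene, with a black bar at each median. The medians of both subunits are lowest in Huh7 WT 1, at 316 for the large and 285 for the small subunit, while a few small subunit genes lie far below the rest in every library.

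Levels differed widely among genes whose proteins occur together in the ribosome. The 5 core genes with the highest mean over the 8 libraries were RPS12 with 1099 FPKM, RPL41 with 1020, RPLP0 with 940, RPL13A with 850 and RPL3 with 835. RPLP0 encodes the base of the stalk on which elongation factors act, RPL3 lies near the peptidyl transferase centre, and RPL41 encodes the smallest of the ribosomal proteins. The order of these 5 is not fixed by the data. RPS12 ran from 726 to 1594 FPKM and RPL41 from 717 to 1949 over the libraries, so that neighbours overlapped.

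The 5 lowest core genes were RPS9 with a mean of 13.4 FPKM, RPS28 with 47.7, RPS18 with 107, RPS26 with 132 and RPL37 with 152. RPS9, which binds ribosomal RNA early in small subunit assembly, stood between 10.2 and 21.6 FPKM, which was from 2.25% to 4.63% of the median core gene of the same library. RPS28 stood between 31.8 and 58.5 FPKM, whereas its pseudogene RPS28P7 was listed at 244 to 512 FPKM. The longest stretch shared without a mismatch by transcripts of RPS28 and RPS28P7 was 210 bases, so reads of the gene could have been counted at the copy, and the level of RPS28 is uncertain. RPS9 has 1 annotated pseudogene of this name pattern, RPS9P1, which was listed at 0 in 7 libraries and 0.0210 in the other. Of the 63241 identifiers, 58228 were in the annotation used. Copies of RPS9 among the others were not looked for, so its level is uncertain as well. In all, 1598 pseudogenes of ribosomal proteins summed to between 2198 and 3518 FPKM per library, from 0.0723 to 0.0952 of the members' own sum.

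The pattern within each library was described by a deviation, the member's log2(FPKM + 1) minus its own median over the 8 libraries, minus the same difference taken as a median over members. This removes the general level of the library. It was taken over the 79 members with a mean of at least 10 FPKM. The median size of a deviation was smallest in HepG2 WT 2, at 0.09, and largest in HepG2 SR 2, at 0.32. The median SD of the deviation over the 8 libraries was 0.27 for large and 0.35 for small subunit genes, and the SD exceeded 0.5 in 6 of 43 and 5 of 30. Among the smallest were those of RPS13 with 0.13 and RPL17 with 0.14. The largest were those of RPS18 with 1.67, RPL22L1 with 1.35 and RPL21 with 1.14. Deviations of 1 or more in either direction numbered 5 and 2 in WT and 1 and 6 in SR libraries of HepG2, and 4 and 3 in WT and 5 and 0 in SR libraries of Huh7.

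In HepG2 WT 1, a small set of abundant genes was low. RPL21, a large subunit gene, was at 35.5 FPKM there and between 290 and 479 in the other 7 libraries, a deviation of -3.26. RPL4, another large subunit gene, was at 90.4 FPKM against 346 to 560 elsewhere, a deviation of -2.14. RPS2, at the mRNA entry side of the small subunit, was at 88.0 FPKM against 279 to 633, with a deviation of -2.12. Their pseudogenes were low in the same library. The 133 RPL21 pseudogenes summed to 32.6 FPKM in HepG2 WT 1 and to between 89.7 and 153 in the others, and the 25 RPS2 pseudogenes summed to 30.6 FPKM against 103 to 285. RPL21 shares a run of 483 bases with RPL21P16 and RPS2 a run of 224 bases with RPS2P5, so values of gene and copy are not separate measurements. RPL7L1 and RPS27L deviated most in the other direction in this library, by 0.75 and 0.71.

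RPS18, a protein of the head of the small subunit, differed most between libraries. It was at 67.4 and 59.9 FPKM in parental and 7.11 and 82.9 in resistant HepG2, and at 56.4 and 488 in parental and 29.5 and 62.8 in resistant Huh7. The highest value was 68.6 times the lowest, replicates of a group were as far apart as the groups, and no group stood apart from the others. Its 6 pseudogenes summed to between 70.4 and 170 FPKM and exceeded the gene itself in 7 of the 8 libraries, with 82.6 against 7.11 in HepG2 SR 1. In Huh7 WT 2, where the gene reached 488 FPKM, the pseudogenes stood at 118. The longest run shared by RPS18 and RPS18P5 was 174 bases, so the level of RPS18 is uncertain. Whether shared reads have a part in its wide range was not tested. Copies of RPS18 among identifiers outside the annotation used were not looked for.

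In HepG2 SR 2, several members stood far above their level in all other libraries. RPL32 was at 537 FPKM there and between 124 and 184 elsewhere, a deviation of 1.48. RPL15 was at 1021 FPKM against 183 to 420, a deviation of 1.40. RPSA, which encodes a small subunit protein also known as the laminin receptor, was at 1450 FPKM against 290 to 611, with a deviation of 1.30. These 3 genes lie on chromosome 3, and so does RPL24, at 585 FPKM against 149 to 310. The 8 chromosome 3 members with a mean of at least 10 FPKM had a median deviation of 0.64 in this library. All tested genes of that chromosome had a median difference of 0.14 from their own medians. Unlike the deviation, that difference has no library median taken off. RPL14, RPL35A and RPL29, on the same chromosome, deviated by -0.09, -0.12 and 0.22. Chromosome 3 was not alone in this. The 4 chromosome 12 members had a median deviation of 0.79 in this library, all 4 above 0. Among them were RPL41 with 1.04, RPS26 with 0.98 and RPL6 with 0.60. RPS24 on chromosome 10 was also high, with a deviation of 1.05. RPS19, the gene most often mutated in Diamond-Blackfan anaemia, was lowest in this library, at 184 FPKM against 202 to 451. Pseudogenes of RPL15 and RPL32 were highest here as well, with sums of 119 and 16.8 FPKM against at most 52.9 and 9.19. RPL15 shares a run of 316 bases with RPL15P3 and RPL32 a run of 96 bases with RPL32P18. Values of gene and copy are thus not separate measurements here either.

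**Figure D2:**
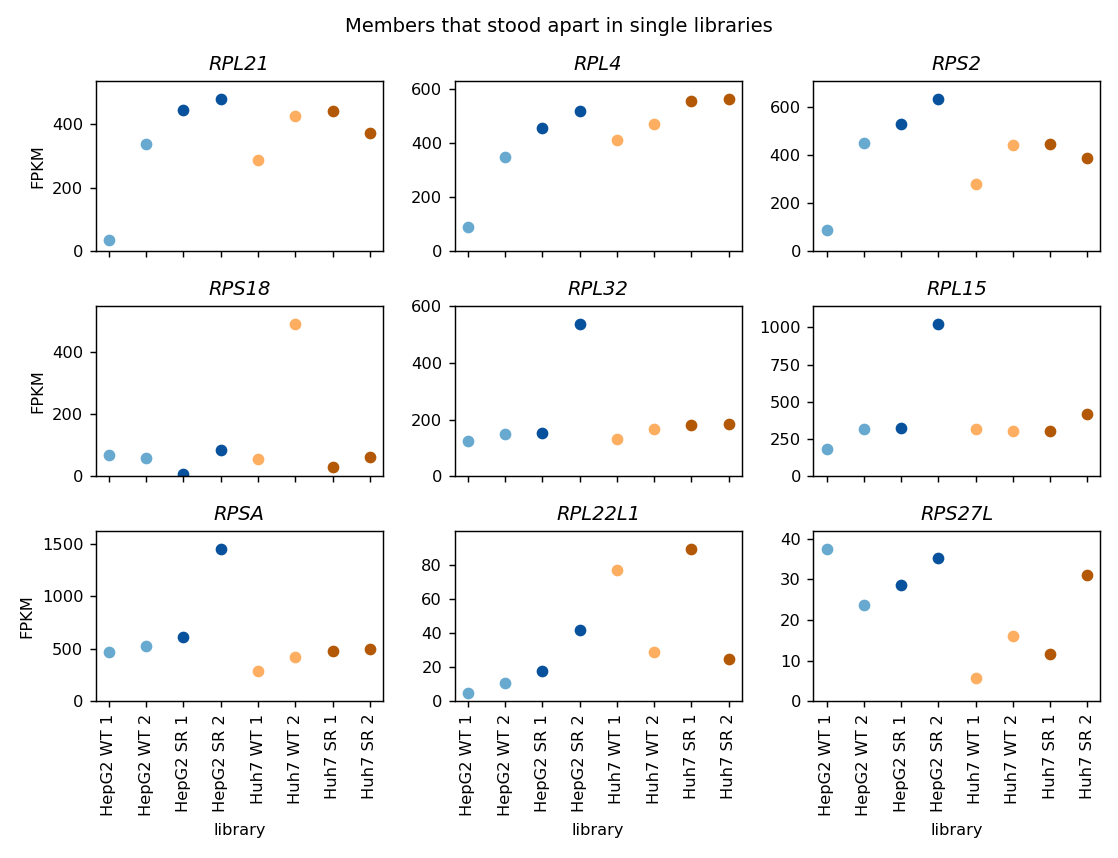
FPKM of 9 members in each library, coloured by group (blue for HepG2 and orange for Huh7, with the darker shade for SR). RPL21, RPL4 and RPS2 are low in HepG2 WT 1, RPS18 is high in Huh7 WT 2, RPL32, RPL15 and RPSA are high in HepG2 SR 2, and RPL22L1 is highest and RPS27L lowest in Huh7 WT 1 and Huh7 SR 1.

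The libraries Huh7 WT 1 and Huh7 SR 1 shared their departures. RPS26, a small subunit protein at the mRNA exit, deviated by 1.33 and 1.24, at 163 and 256 FPKM, although HepG2 SR 2 was similar at 227 and the other 5 lay between 55.6 and 100.0. RPS15A was low in both, at 128 and 215 FPKM, against 366 to 901 elsewhere. Over the 79 members, log2 values of these 2 libraries had a correlation of 0.973, the highest of all 28 pairs. Huh7 SR 2 and HepG2 WT 2 were close behind at 0.971. These correlations are descriptions across genes that share their library. The remaining libraries had fewer such members. RPL37 stood at 308 FPKM in HepG2 WT 2 against 88.2 to 219 elsewhere, and RPL14 at 320 FPKM in HepG2 SR 1 and 392 in Huh7 WT 2 against 98.6 to 201. In Huh7 WT 2, RPS15 and RPL23A were the lowest relative to the rest, at 193 and 238 FPKM. In Huh7 SR 2 no member deviated by as much as 1, and RPS25 and RPL27A were highest with 0.62 and 0.59, and RPL8 lowest with -0.46.

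Comparing SR with WT asks whether expression differed between sorafenib-resistant and parental cells. Fold changes are differences of log2(FPKM + 1) from limma fitted over the 15173 genes that reached 1 FPKM in 2 or more libraries, which understate the change of low genes. Errors of fold changes are SEs of that fit. A gene was called at the thresholds of the study, an unadjusted p under 0.05 and a log2 fold change of at least 0.5 in either direction. Of the 82 members, 80 passed this filter, and RPL3L and RPL10L did not. At a Benjamini-Hochberg adjusted p under 0.05, 0 of the 15173 genes passed in any comparison by limma, while at an unadjusted p under 0.05 there were 325 in HepG2 and 283 in Huh7. All calls below are unadjusted and rest on 2 libraries per group. Counts of calls from other fits, as with a library left out, are given without the share of all genes called there. They show how far the calls moved, not how the members compare with other genes.

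In HepG2, most ribosomal protein genes were higher in SR than in WT by a modest amount. The fold change was above 0 in 70 of 80 members and had a median of 0.43, against a median of -0.03 over all genes tested. It was above 0 in 41 of 43 large subunit genes (median 0.47) and 24 of 30 small subunit genes (median 0.36). Both SR libraries lay above both WT libraries in 54 members, 67.5% of those tested, against 18.1% of all genes, and below both in 1 member, RPS25, against 20.1% of all genes. Without HepG2 SR 2, which stood apart, the median was 0.37 and 72 members were higher. Set beside each WT library in turn, HepG2 SR 1 was higher in 71 and 73 members and HepG2 SR 2 in 68 and 61. Rescaling all libraries to a common sum lowered the median to 0.32, with 65 members higher. Quantile normalization lowered it to 0.19, with 61 members higher.

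Few of these differences were called in HepG2. The count was 1 member higher (1.25% of 80), where 0.877% of all genes were called higher, and 0 lower. In either direction, 325 of the 15173 genes were called. The member was RPL4, with a log2 fold change of 1.45 ± 0.597 (SE, adjusted p = 0.956 by limma). Its values were 90.4 and 346 FPKM in WT and 456 and 516 in SR. The groups did not overlap, but the low value of HepG2 WT 1 set the size of the change: without it the fold change was 0.49. The number of members called in HepG2 was 0 without HepG2 WT 1 or HepG2 SR 2, 2 without either Huh7 WT library, 4 without HepG2 WT 2 and 11 without HepG2 SR 1. With the 5 similar libraries alone RPL4 differed by 1.36, not past the threshold, and 3 other members were called, 2 higher and 1 lower. Larger changes that missed the threshold were those of RPL21 (2.06 ± 0.931), RPS2 (1.53 ± 0.723) and RPL22L1 (1.80 ± 0.802), which were low in HepG2 WT 1, and of RPL39L (2.46 ± 1.42), which was high in HepG2 SR 2.

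In Huh7, the difference of the members between SR and WT depended on which WT library was used. With all libraries, the fold change was above 0 in 72 of 80 members, with a median of 0.32 against -0.05 over all genes, and in 42 of 43 large and 27 of 30 small subunit genes. Both SR libraries lay above both WT libraries in 25 members (31.2%), against 9.06% of all genes, and below both in 0, against 12.9% of all genes. Without Huh7 WT 1, the library with the lowest level of members, the median was 0.06 and 41 of 80 members were higher. Without Huh7 WT 2, it was 0.63 and 76 were higher. With all libraries rescaled to a common sum, the median was 0.23 and 64 members were higher. With quantile normalization it was 0.093 and 50 were higher. Between the libraries of like profile the values differed in the same way: Huh7 SR 1 was above Huh7 WT 1 in 77 of 80 members, with a median difference of 0.68, and Huh7 SR 2 was above Huh7 WT 2 in 32, with a median difference of -0.05.

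The members called in Huh7 were 3 higher (3.75%), where 0.942% of all genes were, and 0 lower, where 0.923% were. RPS25, which small subunits need to start translation at some viral internal ribosome entry sites, stood at 125 and 248 FPKM in WT and 329 and 385 in SR, a log2 fold change of 1.01 ± 0.397. RPL7A was at 233 and 189 FPKM in WT and 413 and 401 in SR, a change of 0.95 ± 0.384. RPL34 was at 159 and 212 FPKM in WT and 279 and 404 in SR, a change of 0.87 ± 0.365. For all 3 the SR libraries lay above the WT libraries, and the adjusted p by limma was 0.99996. Without Huh7 WT 1, RPS25 differed by 0.52, RPL34 by 0.66 and RPL7A by 1.10, none past the p threshold, and the 2 members then called, RPL14 and RPS18, were lower. With the 5 similar libraries alone RPL7A differed by 1.08 and was called, RPS25 by 0.63 and RPL34 by 0.93 without passing the threshold, and 1 member, RPS18, was called lower. The number called higher with all libraries but one was 10 without Huh7 WT 2, 1 without Huh7 SR 1, and 0 without Huh7 SR 2 or without either HepG2 WT library.

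Averaged over both cell lines, 77 of 80 members were higher in SR, with a median of 0.37 against -0.05 over all genes. All 43 large subunit genes were above 0, with fold changes from 0.05 to 1.13, as were 28 of 30 small subunit genes. Only RPS18 (-1.62 ± 0.919), RPS19 (-0.17) and RPL7L1 (-0.15) were below 0. The count called higher was 7 (8.75%), where 1.90% of all genes were, and 0 were called lower, where 2.03% were. With the 5 similar libraries alone the median was 0.17 and 61 members were higher, and 1 was called higher (RPL34) and 1 lower (RPS18). The number called higher was 1 without HepG2 WT 1 or Huh7 SR 1, 4 without HepG2 WT 2 or Huh7 SR 2, 12 without HepG2 SR 1 and 17 without Huh7 WT 2, with 0 lower in each. Without HepG2 SR 2 it was 0 higher and 1 lower, and without Huh7 WT 1 it was 3 higher and 1 lower, the lower one being RPS18.

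The 5 members with the largest called change were 4 of the large subunit and 1 of the small. RPL24 was at 253 and 204 FPKM in parental and 310 and 585 in resistant HepG2, and at 149 and 170 in parental and 259 and 253 in resistant Huh7, a change of 0.79 ± 0.273. It lies at the interface to the small subunit, and its HepG2 value is set in part by HepG2 SR 2, without which the averaged change was 0.56. RPS15, at the decoding side of the small subunit, was at 345, 326, 255 and 193 FPKM in the WT and at 407, 658, 451 and 363 in the SR libraries, HepG2 first, a change of 0.74 ± 0.259. RPL23A, which lies at the exit of the nascent chain, changed by 0.74 ± 0.260, from 413, 379, 316 and 238 FPKM in WT to 511, 833, 509 and 424 in SR. All 4 SR values of RPL23A and RPS15 exceeded all 4 WT values, and so did those of RPL7A (0.73 ± 0.271) and RPL38 (0.67 ± 0.248). RPL7A ran from 189 to 317 FPKM in WT and from 326 to 616 in SR, and RPL38 from 83.2 to 137 and from 164 to 243. The adjusted p of each was 0.998 by limma.

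Separation of all 4 SR from all 4 WT libraries was seen in 8 of 80 members, against 1.52% of all genes. They included RPL6, RPL29 and RPS14 besides RPL23A, RPL7A, RPL38 and RPS15. The summed FPKM of all genes separated in the same way, from 384792 to 403905 in WT and from 411763 to 429111 in SR. RPS14, a small subunit protein at the platform, was between 212 and 217 FPKM in the 4 WT libraries and at 277, 260, 377 and 244 in SR. The narrow range of RPS14 in WT included Huh7 WT 1. With the 5 similar libraries alone, RPL24, RPS15, RPL23A, RPL7A and RPL38 had averaged changes of 0.51, 0.59, 0.60, 0.57 and 0.38, none of them past the p threshold.

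**Figure D3:**
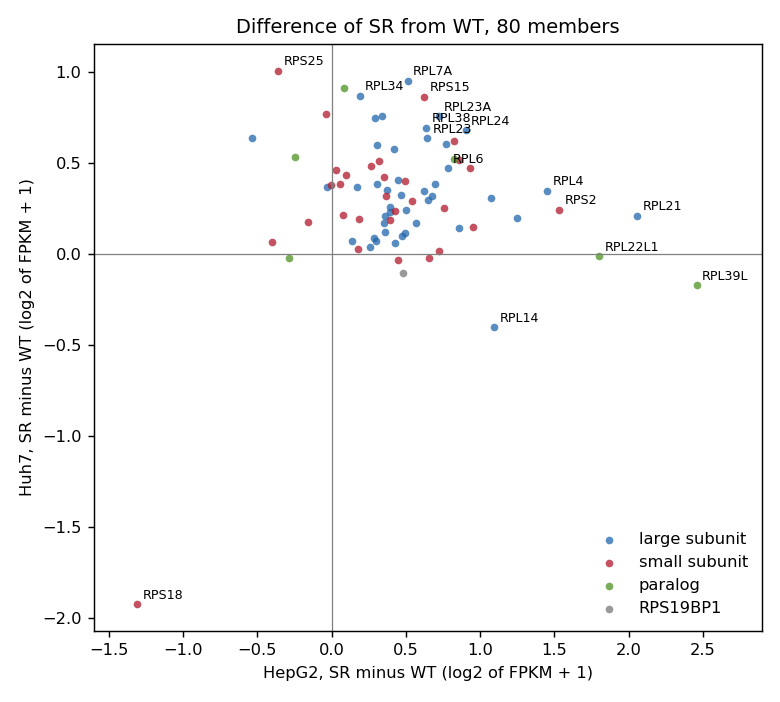
Difference of SR from WT (log2 of FPKM + 1, mean of 2 libraries each) in HepG2 (horizontal) and in Huh7 (vertical) for the 80 members tested, coloured by subunit, with called and far-lying members named. Most points lie above 0 on both axes, with RPS18 alone far below 0 on both (-1.31 and -1.92) and RPS25 at -0.36 in HepG2 and 1.01 in Huh7.

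**Figure D4:**
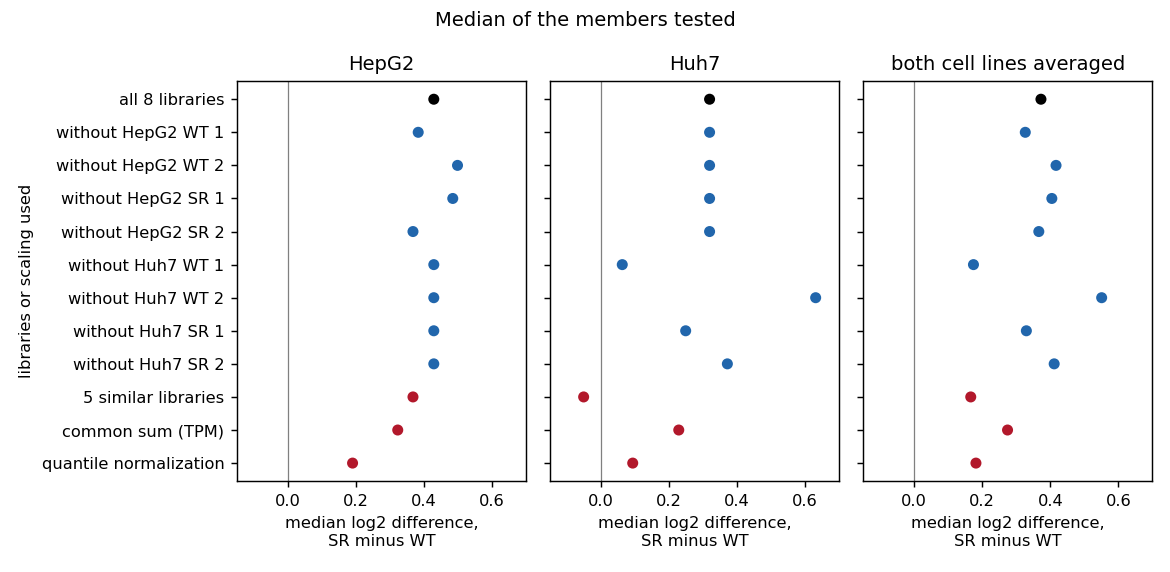
Median log2 difference, SR minus WT, over the members tested with all 8 libraries (black), with each library left out (blue) and with 3 other choices (red). In HepG2 the median stays between 0.37 and 0.50 whichever library is left out, whereas in Huh7 it runs from 0.06 to 0.63 and is -0.05 with the 5 similar libraries.

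The change differed between the cell lines for 1 member at the same thresholds, 1.25% of those tested, where 0.369% of all genes were called in that direction. This was RPS25, whose HepG2 values were 234 and 249 FPKM in the parental and 206 and 172 in the resistant cells, and whose Huh7 values are given above. The difference of the changes, Huh7 minus HepG2, was 1.37 ± 0.562 (SE, adjusted p = 0.9998 by limma). This call was lost when any library other than Huh7 WT 2 was left out, with differences from 0.88 to 1.498, and with the 5 similar libraries (0.86). The median difference of the changes over members was -0.17, with 29 of 80 above 0.

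Comparing Huh7 with HepG2, averaged over WT and SR, the median fold change of the members was 0.01, with 41 of 80 higher in Huh7. It was -0.22, with 18 higher, without Huh7 WT 2, and 0.16, with 52 higher, in the 5 similar libraries. Large subunit genes had a median of -0.10 and small subunit genes of 0.05. Of the members, 2 were called higher in Huh7 (2.50%), where 2.04% of all genes were, and 1 lower (1.25%), where 2.87% were. The number called was 0 without HepG2 WT 1 or Huh7 SR 1, and 1, higher, without HepG2 SR 2 or Huh7 WT 1. It was 2 higher and 3 lower without Huh7 WT 2, and 0 higher and 6 lower without HepG2 SR 1. RPS20, a small subunit protein, was at 373, 333, 405 and 444 FPKM in HepG2 and at 552, 431, 796 and 587 in Huh7, a change of 0.58 ± 0.233 (adjusted p = 0.813 by limma), and was 0.41 in the 5 similar libraries.

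The other 2 called genes are paralogs. RPL22L1, a paralog of RPL22 that can take its place in the large subunit, was at 4.66 and 10.6 FPKM in parental and 17.6 and 41.7 in resistant HepG2, and at 77.1 and 28.98 in parental and 89.1 and 24.6 in resistant Huh7. Its highest values were those of Huh7 WT 1 and Huh7 SR 1. The change between cell lines was 1.67 ± 0.567. RPL22 itself was lowest where RPL22L1 was highest, at 71.8 and 151 FPKM in Huh7 WT 1 and Huh7 SR 1, and lay between 172 and 311 in the others. RPL22 shares a run of 293 bases with its pseudogene RPL22P1, listed at 21.9 to 59.3 FPKM, so its level is uncertain. RPS27L, a target of p53 and paralog of RPS27, was at 37.5, 23.8, 28.6 and 35.3 FPKM in HepG2 and at 5.69, 16.0, 11.6 and 31.0 in Huh7, a change of -1.12 ± 0.438. RPS27 was between 479 and 767 FPKM, with a change of 0.0049 ± 0.242. In the 5 similar libraries the changes of RPL22L1 and RPS27L were 1.17 and -0.37, neither past the p threshold.

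The coding sequences of these paralogs differ from those of their parents at many positions. The coding sequences of RPL22 and RPL22L1 were 66.6% identical over an alignment of 386 positions, with a longest shared run of 17 bases, and those of RPS27 and RPS27L were 77.8% identical over 252, with a longest run of 20. A gap-free stretch of 60 bases from each pair (GENCODE release 29) shows this, with capitals at positions that differ within the pair, 19 in the first and 18 in the second.
RPL22, chromosome 1, coding bases 56 to 115: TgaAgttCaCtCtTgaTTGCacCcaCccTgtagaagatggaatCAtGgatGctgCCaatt
RPL22L1, chromosome 3, coding bases 41 to 100: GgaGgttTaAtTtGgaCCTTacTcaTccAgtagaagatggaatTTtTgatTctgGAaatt
RPS27, chromosome 1, coding bases 1 to 60: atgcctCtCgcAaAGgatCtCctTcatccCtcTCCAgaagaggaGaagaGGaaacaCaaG
RPS27L, chromosome 15, coding bases 1 to 60: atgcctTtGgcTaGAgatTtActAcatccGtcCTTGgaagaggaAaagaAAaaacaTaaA

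The other paralogs ranged from absent to moderately expressed. RPL39L, whose core counterpart lies on the X chromosome, was listed at 0 in 5 libraries, at 1.17 and 0.717 FPKM in Huh7 WT 1 and Huh7 SR 1, and at 29.2 in HepG2 SR 2, so its change in HepG2 rests on that library alone. Its coding sequence was 94.8% identical to that of RPL39, with a shared run of 67 bases between transcripts, so its value is uncertain. RPL3L, known from muscle, did not exceed 0.112 FPKM, and RPL10L, known from testis, did not exceed 2.85. RPL26L1 stood between 15.3 and 56.1 FPKM, against 465 to 862 for RPL26. RPL7L1 stood between 38.5 and 74.1 FPKM, against 299 to 481 for RPL7. RPL36AL was between 78.4 and 168 FPKM. RPS19BP1 was between 22.1 and 56.4 FPKM and highest in HepG2 SR 2.

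RPL5, RPL11, RPS6 and RPS19, known for roles in disease or signalling, were not called in any comparison. RPL5 and RPL11, which bind MDM2 when ribosome assembly fails, had averaged changes of 0.48 ± 0.268 and 0.45 ± 0.256. RPL5 was at 475, 483, 634 and 859 FPKM in HepG2 and at 798, 657, 1183 and 715 in Huh7, WT before SR. RPL11 was at 446, 449, 544 and 563 FPKM in HepG2 and at 236, 374, 535 and 381 in Huh7, so that for both genes SR did not overlap WT in HepG2, and in Huh7 it did not for RPL11 only. RPS6, the substrate of S6 kinase, had a change of 0.29 ± 0.323, and ran from 319 to 774 FPKM, both of them in Huh7 WT. RPS19 had a change of -0.17 ± 0.356.

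Genes that overlap a member could share its reads, since no source used here says that strand was used in counting. Another coding or long noncoding gene overlaps 40 of the 82 members, and for 12 of them one lies on the same strand. RPL17-C18orf32, a readthrough of RPL17, was listed at 11.6, 3.75, 10.2 and 11.8 FPKM in HepG2 and at 0, 0, 10.3 and 8.35 in Huh7, against 332 to 619 for RPL17. RPS10-NUDT3 stood between 4.71 and 13.95 FPKM, against 262 to 456 for RPS10.

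Other genes of translation, from lists of the same kind, are given by their counts. Of 78 mitochondrial ribosomal protein genes, 64 were higher in SR averaged over the cell lines (median 0.26), where 44.9% of all genes were, and 3 were called higher, MRPL17, MRPL23 and MRPL48, where 1.90% of all genes were. Of 46 ribosome biogenesis genes, 37 were higher in HepG2 SR (median 0.32) and 16 in Huh7 SR (median -0.15), where 47.6% and 44.7% of all genes were. FBL, the methyltransferase of box C/D particles, was called higher in HepG2, from 35.8 and 28.1 to 58.3 and 107 FPKM (1.29 ± 0.429), as 1 of 46, where 0.877% of all genes were. RRP12 and SDAD1 were called lower in Huh7 (-1.09 ± 0.452 and -0.73 ± 0.292), 2 of 46, where 0.923% of all genes were. Of 43 translation factors, 33 were higher in HepG2 SR (median 0.18) and 17 in Huh7 SR (median -0.17). Averaged over the cell lines, 26 were higher (median 0.04). NACA alone was called in that average, with 0.62 ± 0.254, 1 of 43 beside the same 1.90%.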

How the data were processed

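Polyadenylated RNA of 8 libraries was sequenced, and the authors deposited 1 FPKM value per gene and library without pooling. The submitters' processing notes name fastp 0.20.0 and GRCh38, and the authors state edgeR for their own test. The aligner, counter and annotation are not given in the sources used here. FPKM are not counts, so log2(FPKM + 1) was tested with limma 3.58.1 (R 4.3.3, eBayes with trend, 4 group means, all 8 libraries) over genes that reached 1 FPKM in 2 or more libraries, and p-values were adjusted over all 15173 genes. Depth is unknown. Positions, transcripts and gene types came from GENCODE release 29 and promoters from RefSeq (GRCh38.p14). Alternatives were a pseudocount of 0.1, no filter, rescaling to a common sum over all or over other genes, quantile normalization, eBayes without trend, a block for the replicate number, separate fits and each library left out. Fits of the 5 similar libraries, and all alternatives for the difference between cell lines, were chosen after seeing the data. The scripts were tested on simulated data.

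The members and lists were chosen with earlier results of these data known. Named members were the 5 highest and 5 lowest core genes, up to 5 called rises and falls per comparison, the 2 largest deviations in each direction per library, all paralogs with their parents, RPS19BP1, RPS19, RPL5, RPL11, RPS6 and members with a readthrough gene. RPSA, RPS2, RPS24, RPL6, RPS13, RPL29, RPL35A and RPS14 were named after their values were seen. Some members are not reported by name here.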

Additional observations from a re-analysis of the deposited data

Results flagged for a closer look

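RPS25 differed between the cell lines in its change from WT to SR, by 1.37 on the log2 scale (Huh7 minus HepG2, SE 0.562, adjusted p = 0.9998 by limma). Both HepG2 SR libraries lay below both HepG2 WT libraries, and both Huh7 SR libraries lay above both Huh7 WT libraries. It was the only one of the 80 members tested in which the cell lines separated in opposite directions. Over all genes, HepG2 SR lay below WT without overlap in 20.1%, and Huh7 SR above WT in 9.06%. The share of all genes with both is not given here. RPS25 was the only member past the unadjusted threshold, where 0.369% of all genes were called in that direction. With the replicate number as a block RPS25 was not past it. It was no longer past it without the trend, with the 5 similar libraries (0.86), or when any library other than Huh7 WT 2 was left out (0.88 to 1.498).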

How the results depend on the processing

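Among 80 members tested, the number called was small and moved with many of the choices. In HepG2 it was 1 as reported, 2 with no filter, 0 with rescaling to a common sum over all or over other genes, 0 with quantile normalization, 3 with separate fits and 3 with the 5 similar libraries. In Huh7 it was 3 as reported, 1 with a common sum, 0 with a common sum of other genes, 0 with quantile normalization, 1 without the trend and 0 with separate fits. For the average of both cell lines it was 7 as reported, 1 with quantile normalization and 2 with the 5 similar libraries. For the difference between the cell lines it was 1 as reported, 0 without the trend and 2, RPL14 among them, both lower, with the 5 similar libraries. Leaving out each library gave 0 to 11 members in HepG2, 0 to 10 in Huh7, 1 to 17 for the average, 0 to 6 for Huh7 against HepG2 and 0 to 4 for the difference between cell lines. The lone sample left in a group is then assumed to vary like those of the other groups. The share of all genes called in each fit is not given beside these counts, which show only that the calls moved.

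The median fold change of the members kept its direction in HepG2 and in the average under every alternative run. Rescaling to a common sum over all genes gave 0.32 in HepG2, 0.23 in Huh7 and 0.27 in the average. Quantile normalization gave 0.19 in HepG2, 0.093 in Huh7 and 0.18 in the average. The 5 similar libraries gave 0.17 in the average and -0.051 in Huh7, a reversal. Leaving out each library gave 0.37 to 0.50 in HepG2, 0.062 to 0.63 in Huh7, 0.17 to 0.55 in the average and -0.22 to 0.13 for Huh7 against HepG2.

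The replicate numbers are shared by the groups, but no source says what they mark, and 2 pairs per cell line are too few to pair the samples by the data. Deviations of same-numbered libraries correlated at 0.125 in HepG2 and 0.796 in Huh7 over all genes tested, and at -0.0001 and 0.68 over the members. With the replicate number as a block, 2 members were called in HepG2, 1 in Huh7 (RPS25, while RPL7A and RPL34 were not), 8 in the average, 2 for Huh7 against HepG2 and 0 for the difference between cell lines.

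No read totals are given, and no counting error was set on any value, and the thresholds used no correction for the number of genes.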
